A study of Arabidopsis thaliana with 6 samples.

Results

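The 10 genes described here encode SUC and SWEET sugar carriers of Arabidopsis thaliana: SUC1 to SUC4, SWEET1, SWEET11 to SWEET13, SWEET16 and SWEET17. They were chosen by name and locus from the 33341 genes counted in each library. Earlier results of these data were known when the choice was made. Of the 10, 8 passed the read filter and were tested among 20013 genes, while SWEET13 and SWEET16 were too sparsely read to be tested.

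RNA was taken from GFP-positive nuclei collected by fluorescence-activated nuclei sorting (FANS) at day 4 of induction with 2 µM dexamethasone (DEX), at flower stage 5. Libraries X13, X16 and X74 are labelled AP3, and libraries X14, X26 and X71 are labelled AG, 3 in each group. All plants carried pAP1:AP1-GR in ap1-1 cal-1, given as Ler in the labels, and received DEX, so neither group is wild type or untreated. The AP3 libraries came from plants with pAP3:NTF(GFP), in which the AP3 promoter drives a GFP fusion that sits at the nuclear envelope. The AG libraries came from plants with iAG:NTF(GFP), in which the second intron of AG and a minimal 35S promoter drive the same fusion. Many inflorescences were pooled for each collection, and the GFP pattern of each construct was imaged in a single representative line. A sorted nucleus is therefore marked by the activity of a reporter and not by its tissue.

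Plants move carbon mainly as sucrose. SUC proteins are proton-coupled importers that take sucrose into a cell against its gradient, and SUC2 does so in the companion cells that load the phloem. SWEET proteins let sugars pass down their gradient in either direction. SWEET11 and SWEET12 release sucrose from phloem parenchyma to the apoplast, from which SUC2 takes it up, whereas other members act at the vacuole or on hexoses. Young flowers are sinks that live on imported sucrose.

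The carriers of the phloem loading route were lower in the libraries labelled AP3. SUC2, SWEET11 and SWEET12 were lower by a log2 fold change of 2.77 or more, and SUC1 was lower by a smaller amount. SWEET1, a glucose carrier, was the single member that was higher. SUC3, SUC4 and SWEET17 did not pass the test. Of the 8 members tested, 5 were called, against 7.76% of all genes tested. There were 4 called lower, against 6.4% of all genes, and 1 called higher, against 1.36%. Each tested member had at least 21 reads in every library, so none passed the filter through one group alone. A called gene had an adjusted p under 0.05 from edgeR's quasi-likelihood test over all 20013 genes. Log2 fold changes are AP3 over AG throughout, so a negative value means lower in AP3. Because RNA of many sorted nuclei was pooled, fewer nuclei of a cell type and less RNA per nucleus cannot be told apart.

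The libraries held 28808948 to 42089156 read pairs over genes. X74 and X71 had more genes with a read, 26717 and 26489, than the other 4 libraries, with 22923 to 23439. X74 belongs to the AP3 group and X71 to the AG group, and the authors' normalized table leaves out both. As a check of the labels, the AP3 transcript was at 126, 207 and 239 CPM (reads scaled to library size, with TMM factors) in X13, X16 and X74, against 58.1, 12.2 and 41.4 CPM in X14, X26 and X71. UFO, a regulator of AP3, was higher in AP3 libraries as well (log2 fold change 3.61, SE 0.31, edgeR adjusted p = 0.00041), while PI did not pass the test (1.58, SE 0.42, edgeR adjusted p = 0.0531). The AG transcript went against its label. It was at 41.5, 75.4 and 94.3 CPM in the libraries labelled AP3, against 38.4, 14.2 and 41.2 CPM in those labelled AG (edgeR adjusted p = 0.141). DESeq2 called both PI and the AG transcript higher in AP3. With DESeq2 included, PI gained a call in 5 of the 14 alternatives run and AG in 2. The groups are therefore named by their labels, and every direction below is between libraries so labelled. Nothing in the labels says that libraries of a group came from separate plants, so each p-value measures the spread between these libraries.

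The regions before SUC1, SUC2, SWEET11 and SWEET12 are shown because these 4 genes were called lower in AP3. Each is the 250 bases before the annotated start of the gene in the TAIR10.1 assembly of RefSeq, whose coordinates for the 10 members are the same as in the count files, and none of these windows reaches into another gene. In the first pair, capitals mark CACGTG, the G-box bound by bZIP and bHLH factors. The windows lie at chr1:27053780-27054029 on the plus strand for SUC1 and at chr1:8033157-8033406 on the minus strand for SUC2.
SUC1: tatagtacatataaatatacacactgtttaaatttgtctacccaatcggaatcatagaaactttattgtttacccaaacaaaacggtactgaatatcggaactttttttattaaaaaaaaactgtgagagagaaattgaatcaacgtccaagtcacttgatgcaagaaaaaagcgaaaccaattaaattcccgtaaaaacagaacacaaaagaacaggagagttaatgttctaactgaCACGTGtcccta
SUC2: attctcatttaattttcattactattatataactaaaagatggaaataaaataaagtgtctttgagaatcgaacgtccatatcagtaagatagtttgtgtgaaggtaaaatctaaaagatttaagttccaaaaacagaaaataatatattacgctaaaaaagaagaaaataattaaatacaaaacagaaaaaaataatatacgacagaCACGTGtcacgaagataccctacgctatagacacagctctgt
SUC1 and SUC2 each held a single CACGTG, with its first base 12 and 42 bases before the start. In both genes it lay within the palindrome GACACGTGTC, which was searched for after the 2 windows had been seen. CACGTG was found in 6.49% of the windows of 27431 protein-coding genes and GACACGTGTC in 75 of them, or 0.273%. None of the other 8 members had CACGTG in the window.

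In the second pair, capitals mark AAAG or its reverse complement CTTT, the core bound by DOF factors, several of which act in phloem. The windows lie at chr3:18054833-18055082 for SWEET11 and at chr5:7973996-7974245 for SWEET12, both on the minus strand.
SWEET11: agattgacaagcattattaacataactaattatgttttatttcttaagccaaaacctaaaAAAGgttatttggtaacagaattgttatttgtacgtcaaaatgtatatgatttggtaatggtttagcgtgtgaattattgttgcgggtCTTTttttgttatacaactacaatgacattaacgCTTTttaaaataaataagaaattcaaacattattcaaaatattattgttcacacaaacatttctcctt
SWEET12: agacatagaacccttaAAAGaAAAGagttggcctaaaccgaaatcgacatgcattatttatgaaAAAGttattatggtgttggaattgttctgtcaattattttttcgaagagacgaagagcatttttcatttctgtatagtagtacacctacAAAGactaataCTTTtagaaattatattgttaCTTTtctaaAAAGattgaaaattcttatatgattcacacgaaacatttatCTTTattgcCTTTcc
SWEET12 had 9 such cores and SWEET11 had 3. A relation between these counts and the RNA levels was not tested. A count of 9 or more was found in 3.22% of all windows and a count of 3 or more in 76.3%, with a median of 4, and 98% of windows had at least 1. The other members had 2 (SWEET1) to 7 (SWEET16). No member had CAATNATTG, an HD-ZIP site, or a CArG box, the site of MADS factors such as AP3 and AG, which were found in 0.919% and 2.52% of all windows. All matches were counted on both strands, and a match is a run of letters and not a shown binding site.

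SUC2 (AT1G22710, chromosome 1, 8030587 to 8033156, minus strand, 4 exons), the companion cell importer, differed most. It was at 1.56, 2.10 and 3.45 CPM in X13, X16 and X74, against 23.7, 66.4 and 16.4 CPM in X14, X26 and X71. Every AP3 library was below every AG library, and X26 stood above the other AG libraries. These levels rest on 57, 64 and 129 reads in AP3 and 643, 2111 and 553 reads in AG. The means were 2.37 ± 0.971 CPM in AP3 and 35.5 ± 27.0 CPM in AG (SD, n = 3 each), a log2 fold change of -3.90 (SE 0.56, edgeR adjusted p = 0.00391). Without X26 the log2 fold change was -3.08 (edgeR adjusted p = 0.00482), and SUC2 was called in all 14 alternatives run.

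SUC1 (AT1G71880, chromosome 1, 27054030 to 27056464, plus strand, 3 exons) is a close relative of SUC2 that imports sucrose in sink cells such as pollen. It had 40.2, 35.7 and 41.5 CPM in the AP3 libraries, against 77.6, 215 and 63.1 CPM in the AG libraries. The AP3 values lay close together and below every AG value, and X26 was again the highest. The means were 39.1 ± 3.05 CPM in AP3 and 119 ± 83.8 CPM in AG (SD, n = 3 each), a log2 fold change of -1.60 (SE 0.41, edgeR adjusted p = 0.0492). The size of this difference depended on X26, without which it was -0.85 (SE 0.17, edgeR adjusted p = 0.0281). The call sat at the threshold and was lost without X13, X16 or X74, at edgeR adjusted p = 0.132, 0.165 and 0.0867. SUC1 was the most abundant member per gene length in both groups.

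SUC1 and SUC2 did not change in proportion. The ratio of SUC1 to SUC2 reads within a library was 25.7, 17.0 and 12.0 in AP3, against 3.27, 3.24 and 3.85 in AG. No library size enters this ratio, and the groups were far apart, with the AG libraries close to one another. The mean ratio was 18.2 ± 6.93 in AP3 and 3.45 ± 0.345 in AG (SD, n = 3 each). The ratio was chosen after its values were seen, so no test was run on it.

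SUC3 (AT2G02860, chromosome 2, 828279 to 832619, minus strand, 14 exons), a long family member with low affinity for sucrose, was nearly even. It had 43.3, 44.2 and 41.2 CPM in AP3, against 45.4, 52.9 and 50.8 CPM in AG. The groups did not overlap, but the gap was small (log2 fold change -0.21, SE 0.15, edgeR adjusted p = 0.521). SUC4 (AT1G09960, chromosome 1, 3243986 to 3247216, plus strand, 6 exons), a carrier of the vacuolar membrane, was at 10.2, 12.3 and 9.12 CPM in AP3, against 13.2, 20.7 and 11.8 CPM in AG. Here X16 lay above X71, so the groups overlapped (log2 fold change -0.53, SE 0.27, edgeR adjusted p = 0.336). Neither gene was called in any of the 14 alternatives.

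**Figure D1:**
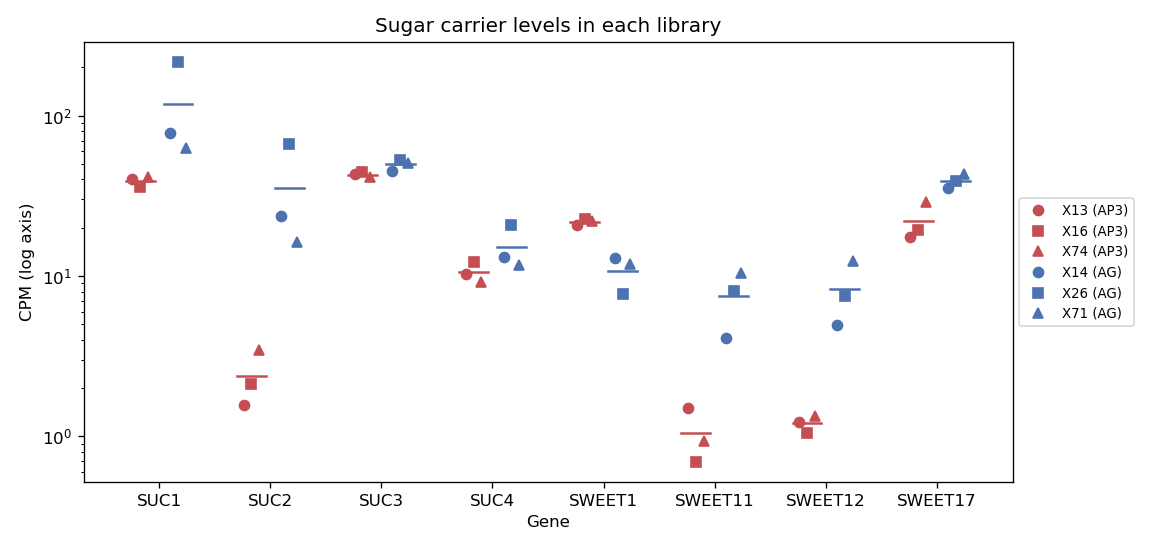
CPM on a log axis for the 8 tested members in each library, AP3 (red, left of each pair) and AG (blue), with a line at the mean of each group. The AP3 points of SUC2, SWEET11 and SWEET12 lie at 3.45 CPM or less and under every AG point, and SWEET1 is the one gene whose AP3 points lie above the AG points.

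SWEET11 (AT3G48740, chromosome 3, 18052466 to 18054832, minus strand, 6 exons) and SWEET12 (AT5G23660, chromosome 5, 7971647 to 7973995, minus strand, 6 exons) are paralogs that act together in sucrose release before phloem loading. SWEET11 was at 1.51, 0.690 and 0.936 CPM in AP3, from 55, 21 and 35 reads, against 4.09, 8.05 and 10.4 CPM in AG, from 111, 256 and 352 reads. SWEET12 was at 1.24, 1.05 and 1.34 CPM in AP3, from 45, 32 and 50 reads, against 4.98, 7.52 and 12.4 CPM in AG, from 135, 239 and 417 reads. For both genes the AP3 libraries were below all AG libraries, X14 was the lowest AG library and X71 the highest.

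The SWEET11 means were 1.05 ± 0.420 CPM in AP3 and 7.53 ± 3.20 CPM in AG (SD, n = 3 each), a log2 fold change of -2.84 (SE 0.48, edgeR adjusted p = 0.00776). The SWEET12 means were 1.21 ± 0.145 CPM in AP3 and 8.28 ± 3.75 CPM in AG (SD, n = 3 each), a log2 fold change of -2.77 (SE 0.41, edgeR adjusted p = 0.00476). SWEET12 was called in all 14 alternatives. SWEET11 lost its call in one, the 4 libraries without X74 and X71 (log2 fold change -2.46, edgeR adjusted p = 0.0557). Reads that aligned to several genes were not kept, so any stretch shared by paralogs is missing from both counts. The 2 paralogs were read about equally. The ratio of SWEET11 to SWEET12 reads was 1.22, 0.656 and 0.700 in AP3, against 0.822, 1.07 and 0.844 in AG, so the groups overlapped. Unlike SUC1 and SUC2, they were highest in X71 and not in X26: the ratio of SWEET12 to SUC2 reads was 0.754 in X71, against 0.210 in X14 and 0.113 in X26.

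SWEET1 (AT1G21460, chromosome 1, 7511750 to 7513481, minus strand, 5 or 6 exons by transcript) carries glucose across the plasma membrane and rose in AP3. It was at 20.8, 22.6 and 22.0 CPM in AP3, against 12.9, 7.74 and 11.8 CPM in AG. All AP3 values lay above all AG values, and X26, highest for SUC1 and SUC2, was lowest here. The means were 21.8 ± 0.906 CPM in AP3 and 10.8 ± 2.71 CPM in AG (SD, n = 3 each), a log2 fold change of 1.01 (SE 0.23, edgeR adjusted p = 0.0297). Over the alternatives the log2 fold change ran from 0.82 to 1.14, but the call was lost without X13, X16, X74 or X71, at edgeR adjusted p = 0.0641, 0.114, 0.0626 and 0.0694. SWEET1 was also not called in the 4 libraries of the authors' table (log2 fold change 1.07, edgeR adjusted p = 0.119). Its annotated end overlaps the neighbouring gene AT1G21450 on the other strand by 52 bp, and reads were counted without regard to strand.

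SWEET17 (AT4G15920, chromosome 4, 9030486 to 9033648, minus strand, 6 exons), a fructose carrier of the vacuolar membrane, lay at the threshold. It was at 17.5, 19.4 and 28.8 CPM in AP3, against 35.6, 39.0 and 43.0 CPM in AG. The groups did not overlap, and X74 was the highest AP3 library. The means were 21.9 ± 6.03 CPM in AP3 and 39.2 ± 3.71 CPM in AG (SD, n = 3 each), a log2 fold change of -0.84 (SE 0.22, edgeR adjusted p = 0.0508). Without X74 it was -1.09 (edgeR adjusted p = 0.0154), and DESeq2 gave an adjusted p of 0.012. SWEET17 was called in 5 of the 14 alternatives and stayed uncalled in 9, with an edgeR adjusted p of up to 0.2. Its log2 fold change ran from -1.09 to -0.69 over them. SWEET1 and SWEET17, which both carry hexoses at different membranes, thus lay on opposite sides of zero. The ratio of SWEET1 to SWEET17 reads was 1.19, 1.16 and 0.765 in AP3, against 0.362, 0.198 and 0.275 in AG. This ratio was also chosen after its values were seen and was not tested.

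SWEET13 and SWEET16 had at most 15 reads in any library. SWEET16 (AT3G16690, chromosome 3, 5684317 to 5686544, minus strand), a sugar carrier of the vacuolar membrane related to SWEET17, had 1 read in each AP3 library, against 7, 5 and 10 reads in X14, X26 and X71. Its read rate in AP3 over AG was 0.121 (95% exact interval 0.0232 to 0.403, counting error only). SWEET13 (AT5G50800, chromosome 5, 20665068 to 20667312, minus strand), a sucrose carrier known from anthers, had 0, 2 and 15 reads in X13, X16 and X74, against 2, 0 and 1 reads in X14, X26 and X71. A count of 0 allows up to 3 reads, or 0.0823 CPM in X13 and 0.0944 CPM in X26. Its read rate in AP3 over AG was 5.04 (95% exact interval 1.46 to 26.8, counting error only), but 15 of its 17 AP3 reads came from X74, and the groups overlapped.

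**Figure D2:**
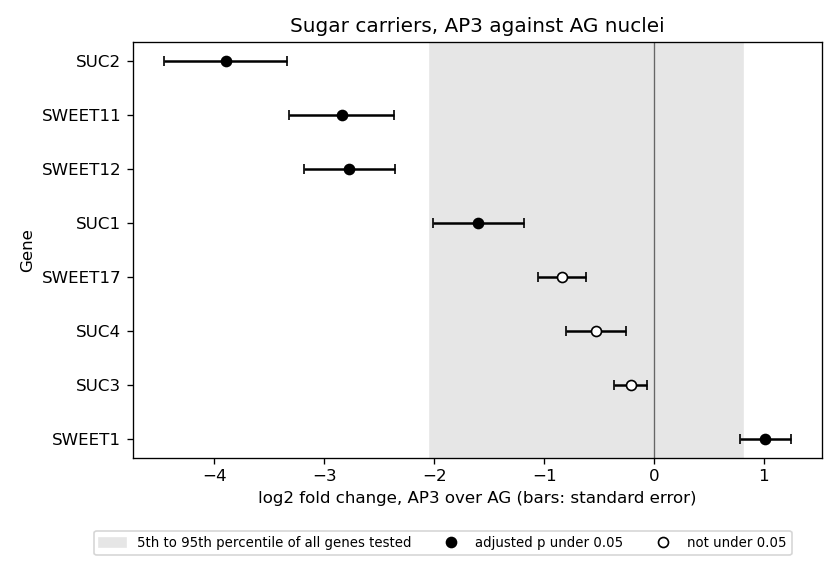
Log2 fold change, AP3 over AG, of the 8 tested members with bars of 1 standard error, over a band from the 5th to the 95th percentile of all 20013 genes tested (-2.04 to 0.81). SUC2, SWEET11 and SWEET12 lie left of the band and SWEET1 lies right of it.

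The log2 fold changes of all genes tested had a median of 0.03 and a range of -2.04 to 0.81 between the 5th and 95th percentiles. The 8 tested members had a median of -1.22, and 7 of them were negative, against 46.8% of all genes. The groups did not overlap for 7 of the 8, against 25.9% of all genes: 6 members were lower in AP3, against 15%, and 1 was higher, against 10.9%. Read together, the 10 members summed to 136 to 149 CPM in AP3, against 218 to 417 CPM in AG, where X26 gave the highest sum.

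The order of the members differed between the groups. Levels between genes are given as CPM per kb of gene. In AP3, SUC1 led with 16.1 ± 1.25, followed by SWEET1 (12.6 ± 0.523), SUC3 (9.88 ± 0.358), SWEET17 (6.92 ± 1.91) and SUC4 (3.27 ± 0.498 CPM per kb, SD, n = 3 each). SUC2 (0.923 ± 0.378), SWEET12 (0.514 ± 0.0615) and SWEET11 (0.442 ± 0.178 CPM per kb) came last, and of all neighbours in this order only SWEET12 and SWEET11 overlapped. In AG, SUC1 was at 48.7 ± 34.4 and SUC2 was next at 13.8 ± 10.5, followed by SWEET17 (12.4 ± 1.17), SUC3 (11.4 ± 0.886) and SWEET1 (6.24 ± 1.57 CPM per kb, SD, n = 3 each). SUC4 (4.71 ± 1.49), SWEET12 (3.53 ± 1.60) and SWEET11 (3.18 ± 1.35 CPM per kb) were lowest. In AG the neighbours SUC1 and SUC2, and SUC3 and SWEET1, did not overlap, whereas the other neighbours did. SWEET1 was 2nd of 8 in AP3 and 5th in AG, and SUC2 was 6th in AP3 and 2nd in AG. The place of SUC2 in AG rested on X26, where it had 25.8 CPM per kb, against 9.23 in X14 and 6.38 in X71. Without X26, a setting chosen after the data were seen, its AG mean was 7.80 CPM per kb and it was 4th, behind SWEET17 and SUC3, while SUC1 stayed first at 28.9 CPM per kb. Whole gene spans were counted, introns included, and introns make up 9.24% of SUC1 and 59.3% of SWEET17.

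The pair of libraries outside the authors' normalized table, X74 and X71, had the same directions on their own. X74 was below X71 by a log2 difference of -2.25 for SUC2, -3.48 for SWEET11, -3.21 for SWEET12, -0.61 for SUC1 and -0.58 for SWEET17. It was above X71 by 0.90 for SWEET1. These are single libraries, with no spread.

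Most phloem markers were lower in AP3, the direction of SUC1, SUC2, SWEET11 and SWEET12 and opposite to that of SWEET1. Of 23 phloem markers, 21 were tested, with a median log2 fold change of -2.08. Of the 21, 15 were called lower in AP3 and 0 higher, against 6.4% and 1.36% of all genes tested. The only positive one was BRX, which was not called. Their summed level was 352 to 426 CPM in AP3, against 756 to 949 CPM in AG, and none was at 0 in all libraries. APL, a factor needed for phloem identity, was at 1.98, 2.30 and 2.67 CPM in AP3, against 34.9, 33.4 and 32.6 CPM in AG. X26, the highest library for SUC1 and SUC2, also had the highest phloem sum. Single phloem markers differed in their highest AG library. AHA3 was at 19.9, 75.5 and 22.4 CPM in X14, X26 and X71, and CLE44 was at 48.6, 100 and 60.8 CPM. PP2-A1 and FTIP1 were also highest in X26. APL was nearly even over the AG libraries, SEOR1 was highest in X14 and CLE41 was highest in X71. SWEET11 and SWEET12 were highest in X71, which had the lowest phloem sum of the AG libraries. Among the phloem markers called, FTIP1 (1, 1 and 1 reads in AP3) and NEN4 (3, 0 and 1) passed the read filter only through AG. With more than 10 reads asked of all 6 libraries, 12 of 18 phloem markers were called. Of 7 procambium markers, 5 were called lower in AP3, against 6.4% of all genes tested. The 7 summed to 118 to 149 CPM in AP3 and 355 to 459 CPM in AG. Xylem markers summed to 39.9 to 47.0 CPM in AP3, against 149 to 222 CPM in AG. Of these, 8 of 12 tested were called lower, against 6.4% of all genes tested, but several passed the filter only through AG. There were 4 called without X16, and 1 of 3 tested when more than 10 reads were asked of all 6 libraries. Epidermis markers summed to 3547 to 4307 CPM in AP3, against 868 to 1986 CPM in AG. Most of this sum was PDF1, at 3467, 3453 and 2897 CPM in X13, X16 and X74, against 1491, 583 and 1085 CPM in X14, X26 and X71. Of the 6 epidermis markers 3 were called higher in AP3, against 1.36% of all genes tested. That count was 1 without X16, 1 without X71, 1 with the 4 libraries of the authors' table and 5 with DESeq2. No mesophyll marker was called by edgeR, with 0 of 6 at an unadjusted p under 0.05 and 0 by DESeq2, although 1 was called without X16. Of 3 anther markers tested EMS1 was called higher, against 1.36% of all genes tested, while AMS and SPL were not called. AMS had 34, 26 and 38 reads in AP3, against 230, 24 and 69 reads in X14, X26 and X71, and SPL had a log2 fold change of 0.42. The part of cell type content in the carrier differences was not tested.

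**Figure D3:**
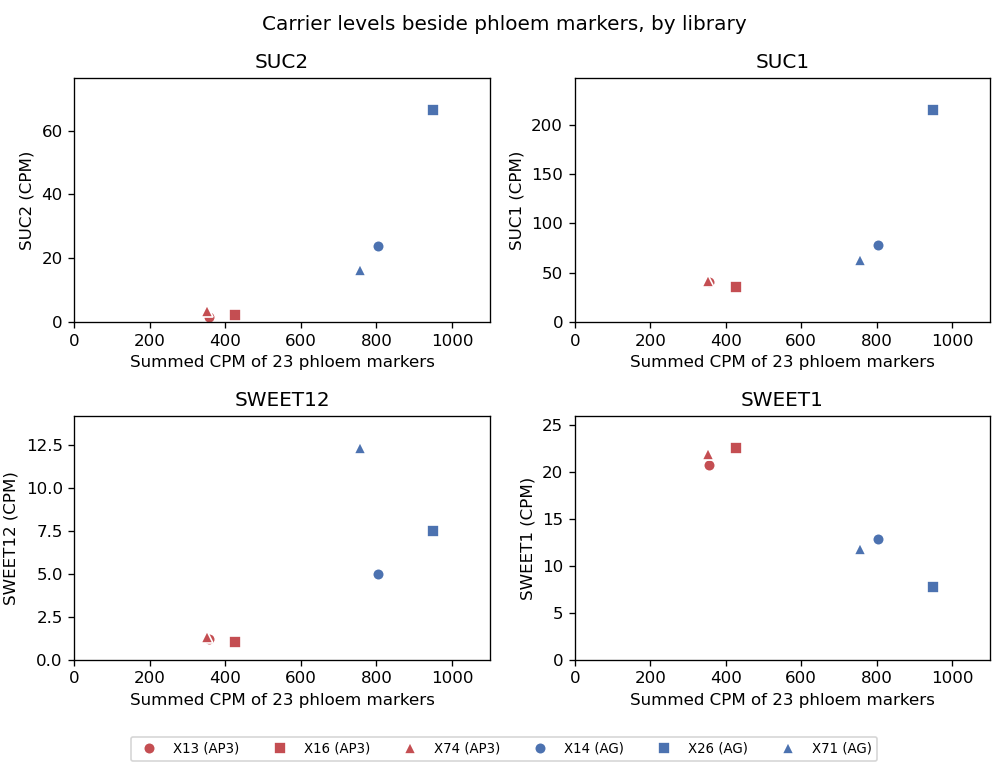
CPM of SUC2, SUC1, SWEET12 and SWEET1 (y axes) against the summed CPM of 23 phloem markers (x axes), 1 point per library, AP3 in red and AG in blue. The AP3 libraries sit at 352 to 426 CPM of phloem markers and the AG libraries at 756 to 949 CPM, with SUC1 and SUC2 highest in X26 and SWEET12 highest in X71.

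As a description, the 5 genes whose log2 CPM followed SUC2 most closely over the 6 libraries, among 14369 genes whose log2 CPM averaged 3 or more, were MAN7 (Pearson's r = 0.996), GATA26 (0.995), PROT1 (0.994), TMO5 (0.994) and AT3G17120 (0.993). The 6 points fall into 2 groups of 3 libraries, so a difference between the groups alone can raise r. The pattern within each group enters r as well. Of these genes, 4.23% had an r above 0.9. Among the members, SUC1 came closest to SUC2 (r = 0.926). SWEET17 (0.886), SWEET12 (0.878), SWEET11 (0.862), SUC3 (0.819) and SUC4 (0.799) followed, and SWEET1 ran opposite (r = -0.964).

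Genes outside the 10 were taken from lists of sugar carriers and of enzymes of sucrose metabolism. Over all genes tested, 6.4% were called lower and 1.36% higher. Of 16 other SUC and SWEET genes 5 were tested, of which SWEET10 was called lower and SUC5 higher in AP3. SWEET10, a sucrose carrier linked to the floral transition, was at 1.92, 1.61 and 1.98 CPM in AP3, against 11.4, 14.9 and 21.9 CPM in AG (log2 fold change -3.12, SE 0.32, edgeR adjusted p = 0.000775). Its groups were well apart, as for SWEET11 and SWEET12, and it lies 7066 bp from SWEET13 on the same strand with no gene between. SUC5, an importer known from the seed endosperm, lies 1916 bp from SUC1 on the same strand with no gene between. It had 35, 15 and 17 reads in AP3, against 1, 1 and 3 reads in AG, a read rate in AP3 over AG of 11.9 (95% exact interval 4.86 to 37.9, counting error only). SUC5 passed the read filter only through the AP3 libraries, where it was high, so its call (edgeR adjusted p = 0.027) supports no comparison with SUC1, and it was not tested when more than 10 reads were asked of all 6 libraries. The call was lost without X13, X16, X14 or X26, at edgeR adjusted p = 0.097, 0.0673, 0.0826 and 0.0872.

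The STP genes, proton-coupled importers of hexoses, had 9 of 14 tested and 2 called lower, against 6.4% of all genes tested. STP1 was at 20.6, 23.2 and 24.3 CPM in AP3, against 51.5, 52.2 and 49.5 CPM in AG (log2 fold change -1.17, SE 0.16, edgeR adjusted p = 0.0028). The libraries of each group were close together and far from the other group. STP4 was at 3.46, 3.58 and 3.72 CPM in AP3, against 7.82, 11.9 and 7.61 CPM in AG (log2 fold change -1.34, SE 0.30, edgeR adjusted p = 0.0257). Its call was lost without X13, X16, X74, X26 or X71, at edgeR adjusted p = 0.0806, 0.108, 0.0523, 0.0725 and 0.05. Of 7 vacuolar sugar carriers, all tested, ESL1 was lower, at 0.741, 0.822 and 1.90 CPM in AP3, against 8.08, 11.0 and 12.1 CPM in AG (log2 fold change -3.16, SE 0.44, edgeR adjusted p = 0.00329).

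Among enzymes that cleave sucrose, 11 of 15 were tested. Of these, 1 was called lower and 1 higher, against 6.4% and 1.36% of all genes tested. SUS5 and SUS6 are the sucrose synthases of sieve elements. SUS5 was at 0.192, 0.592 and 0.241 CPM in AP3, against 3.50, 4.09 and 1.24 CPM in AG (log2 fold change -3.11, SE 0.67, edgeR adjusted p = 0.023). SUS6 was at 24.8, 14.5 and 15.4 CPM in AP3, against 6.16, 4.03 and 4.50 CPM in AG (log2 fold change 1.90, SE 0.30, edgeR adjusted p = 0.00599). SUS5 had 7, 18 and 9 reads in AP3, so it passed the read filter only through the AG libraries, where it was high, and it was not tested when more than 10 reads were asked of all 6 libraries. Its call was also lost without X13, X74, X14 or X26, at edgeR adjusted p = 0.0783, 0.0552, 0.0578 and 0.0712, while the SUS6 call was kept in all 14 alternatives. None of the 8 enzymes of sucrose synthesis was called by edgeR, with 0 at an unadjusted p under 0.05 and 0 called by DESeq2. In these 5 lists together, 40 of 60 genes were tested. Of these, 5 were called lower and 2 higher, against 6.4% and 1.36% of all genes tested. The median log2 fold change of the 40 was 0.03, against 0.03 over all genes.

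**Figure D4:**
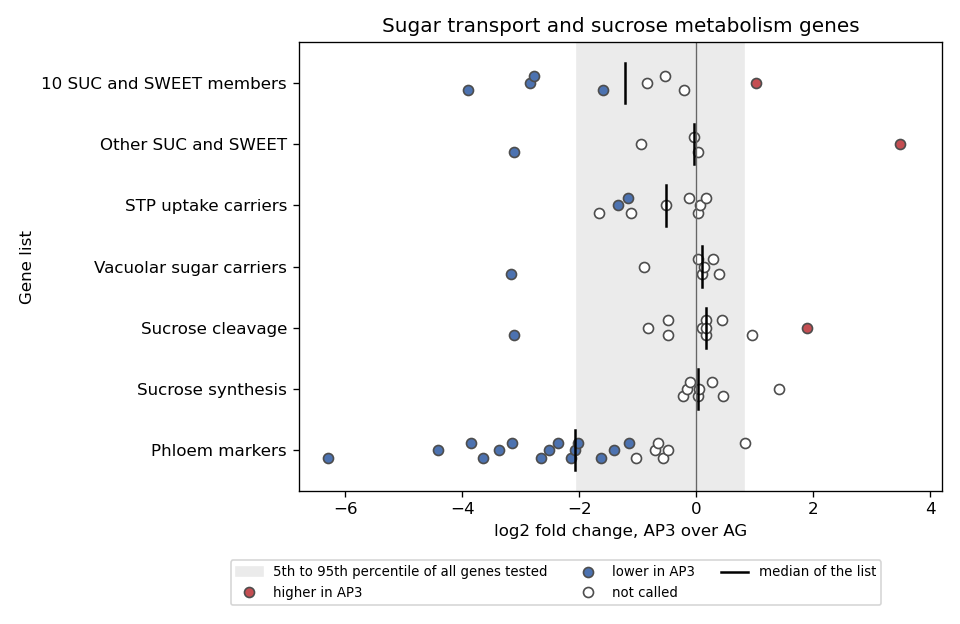
Log2 fold change, AP3 over AG, of every tested gene in the 10 SUC and SWEET members, 5 lists of other sugar genes and the phloem markers, with a black line at each median and a band from the 5th to the 95th percentile of all genes tested. The members (median -1.22) and the phloem markers (-2.08) sit to the left, and the medians of the other lists lie between -0.53 and 0.16.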

How the data were processed

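The authors aligned reads to TAIR10 with STAR 2.7.0b and retained unique alignments. The deposited count files give read pairs per gene, 1 file per library, with no scaling. Per the file headers, featureCounts 1.6.0 counted whole genes, introns included, without strand. The authors also deposited log2-like variance stabilized values from DESeq2 1.24.0 for X13, X16, X14 and X26. No sample column was left unmapped.

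Nuclear genes that exceeded 10 reads in 2 or more libraries were tested. Counts were tested with edgeR 4.0.16 (R 4.3.3), by the quasi-likelihood test with TMM scaling and Benjamini-Hochberg adjustment, and checked with DESeq2 1.42.0. Standard errors were derived from the F statistic. The fit was tested on simulated data. Library totals were 28808948 to 42089156 counts, and tested members had at least 21 reads in every library. The comparison was between the 3 AP3 and the 3 AG libraries. All 10 members were named. Of the other lists, up to 4 called genes with the largest absolute change could be named, and for SUC2 the 5 most correlated genes. AHA3, CLE44, SEOR1 and CLE41 were named for their levels within the AG group, after these were seen. The members and lists were chosen with earlier results of these data known. Alternatives were other scalings, read filters, the 4 libraries of the authors' table, a library code block, and leaving out each library. Windows before genes came from RefSeq's TAIR10.1. Protein sequences were not used here.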

Additional observations from a re-analysis of the deposited data

How the results depend on the processing

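The directions of the 8 tested members, of the named genes of the other sugar lists, and of AP3, AG, PI, UFO, APL and EMS1 were kept in each alternative in which they could be fitted. BRX, AHA3, CLE44, SEOR1, CLE41, AMS, SPL and the genes most like SUC2 were not followed through the alternatives. The count of genes called, 1554, was 2435 with DESeq2 and 1022 with the 4 libraries of the authors' table, and ran from 737 (without X16) to 1480 when 1 library was left out, with 953 without X13 and 981 without X71. The count of members called, 5, ran from 3 (without X13 or without X16) to 5 on leaving out a library, and from 4 to 6 otherwise. That of the other sugar lists, 7, ran from 4 (without X13 or without X26) to 6, and from 5 to 7 otherwise. SUC2 and SWEET12 were called in all alternatives, SUC1 lost its call in 6, SWEET1 in 5 and SWEET11 in 1, and SWEET17 gained one in 5. Apart from leaving out libraries, SUC1 lost its call with more than 10 reads asked of all 6 libraries (edgeR adjusted p = 0.0505), with organelle genes kept (0.0502) and with the library code as a block (0.0563). Without the filter on low counts SWEET16 and SWEET13 could be fitted, at edgeR adjusted p = 0.22 and 0.594. No paired analysis was possible because the labels carry no replicate numbers: libraries were numbered in accession order as names only. The block set X71 and X74 apart from the other 4 libraries, with 1781 genes and 5 members called. The causes of these changes were not tested. With at most 15 reads in any library, SWEET13 and SWEET16 are the least certain members.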

Other observations

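The authors' variance stabilized table, which was not used in the comparisons above, holds 8 of the 10 members for X13, X16, X14 and X26, without SWEET13 and SWEET16. The mean of its AP3 libraries minus the mean of its AG libraries was -2.65 for SUC2, -1.61 for SUC1, -0.93 for SWEET11, -0.94 for SWEET12, -0.81 for SWEET17, -0.39 for SUC4, -0.15 for SUC3 and 0.76 for SWEET1. On the same 4 libraries edgeR gave log2 fold changes of -4.63 for SUC2, -2.46 for SWEET11 and -2.45 for SWEET12, so all 3 differences are smaller on the authors' scale.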
